A study of Homo sapiens and Mus musculus with 15 samples.

Results

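The 10 genes described here encode the inducible machinery that cuts proteins into peptides and loads them onto MHC class I: PSMB8, PSMB9 and PSMB10, PSME1 and PSME2, TAP1 and TAP2, TAPBP, ERAP1 and NLRC5. They were chosen by name for their known role, with earlier results of these data known, so the choice was not independent of the data. All 10 were found under these symbols among the 61071 genes of the human table, and their mouse orthologues among the 56832 genes of the bulk mouse table and the 32285 genes of the single-cell matrices.

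The proteasome degrades proteins in a barrel of subunits, and interferon-stimulated cells exchange its constitutive catalytic subunits for inducible ones, which gives the immunoproteasome. The PA28 cap, built from PSME1 and PSME2, opens the barrel. The transporter TAP1-TAP2 carries the peptides into the endoplasmic reticulum, tapasin (TAPBP) bridges the transporter to empty class I molecules and helps to select the peptide, ERAP1 trims peptides to fit, and NLRC5 is a transactivator of class I promoters. The retinal pigment epithelium (RPE) is the pigmented layer behind the photoreceptors, and the healthy eye is known as an immune-privileged site.

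Samples from one study on ageing and the mechanosensitive co-activator YAP were measured in 3 sets. ARPE-19, a line of human RPE cells, was sequenced as bulk mRNA after 5 days in culture: 3 libraries of YAP-HA overexpressing cells on a 1.5 kPa substrate, 3 of control-vector cells on the same 1.5 kPa substrate and 3 of control-vector cells on plastic. Bulk libraries of old C57BL/6J mice came from 2 samples of mice given TRULI, an inhibitor of the LATS kinases that restrain YAP, and 2 samples without it, with RNA taken from the eye cup after the retina had been removed. Single cells dissociated from the RPE were profiled in 1 library each of C57BL/6J mice aged 24 months (Old-RPE) and 3 months (Young-RPE). The age of the bulk mice in months was not given. ARPE-19 is a single line, and no label says that replicates came from separate cultures or animals, so p-values measure the spread between these libraries, which may be technical. The condition field of the Young-RPE library reads old, against its own title and age field, and the library was used as 3 months.

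Interferon reaches several of these genes through a short promoter element, so the 250 bases before 1 RefSeq start site per gene (GRCh38.p14) were searched on both strands. Of the 10 genes, 9 had a RefSeq promoter, and NLRC5 had none and is named only. The first start listed for a gene was used, so other starts were not searched. A check of the bases after that start against GENCODE transcripts found no match for PSMB8 and ERAP1. The ISRE core, GAAA repeated after any 2 bases, or TTTC repeated after any 2 bases when read from the other strand, was present in 5 of the 9 promoters, against 3.07% of 27305 promoter windows of the same length. The GAS letters TTCNNNGAA were in 0 of 9 members and 6.78% of all windows, and the TEAD core GGAATG or CATTCC, the element through which YAP partners bind, was in 1 of 9 members (PSME2) and 11.9% of all windows. The 30 bases round each ISRE match are printed 5′ to 3′ on the minus strand, the coding strand of all 5 genes, with the matches in capitals.
PSMB10, chr16:67936852-67936881: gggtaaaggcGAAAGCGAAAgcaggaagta
PSME2, chr14:24146619-24146648: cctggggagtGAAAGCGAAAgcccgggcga
TAP1, chr6:32853816-32853845: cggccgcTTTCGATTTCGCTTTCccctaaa
TAP2, chr6:32838778-32838807: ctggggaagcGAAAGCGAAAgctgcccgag
TAPBP, chr6:33314079-33314108: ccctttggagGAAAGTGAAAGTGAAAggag
The match nearest to a start site was in TAPBP, 20 to 5 bases upstream, and it held 2 overlapping copies. PSMB10 carried its match 21 to 12 bases upstream, PSME2 28 to 19, TAP2 58 to 49 and TAP1 134 to 119 bases upstream, TAP1 again with 2 overlapping copies. A match is only a run of letters, and no binding was measured.

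PSMB8, PSMB9, TAP1, TAP2 and TAPBP all lie in the MHC region of chromosome 6. The RefSeq starts used for the promoters, 32854192 for PSMB9 (plus strand) and 32853704 for TAP1 (minus strand), are 488 bases apart and point away from each other. The GENCODE bounds of these genes begin elsewhere. In GENCODE annotation on GRCh38, PSMB8 (chromosome 6, 32840717 to 32844703, minus strand) overlaps PSMB9 (32844136 to 32859585, plus strand), which in turn overlaps TAP1 (32845209 to 32853978, minus strand). The library kit keeps strand, but the strand setting of the counting was not given, so reads in these overlaps may be split between the genes. PSME2 also has the pseudogenes PSME2P2 and PSME2P6, with which it may share reads.

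YAP1 followed the labels in ARPE-19, with 2469, 2209 and 2424 TPM (transcripts scaled to a fixed library total) in the YAP-HA libraries, against 77.3, 55.9 and 64.8 TPM in control cells on 1.5 kPa and 115, 126 and 119 TPM on plastic. The YAP target CCN2 followed only weakly, with 171 to 197 TPM under YAP-HA and 147 to 156 TPM in control cells on 1.5 kPa. Under YAP-HA it stayed well below its 456 to 476 TPM on plastic. The mature RPE genes RPE65 and TTR were listed at 0 in all 9 ARPE-19 libraries, RLBP1 reached at most 4.56 TPM and MITF 13.9 TPM. How deeply the bulk libraries were sequenced cannot be read from TPM.

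On the 1.5 kPa substrate, control ARPE-19 cells carried more immunoproteasome and transporter transcript than on plastic. PSMB8, PSMB9, PSMB10, PSME1, PSME2, TAP1 and TAP2 rose, by 0.45 to 1.06 on the log2(TPM + 1) scale, ERAP1 fell, and TAPBP and NLRC5 did not pass the test. That is 7 of 10 genes higher and 1 of 10 lower at an adjusted p under 0.05 (limma with Benjamini-Hochberg adjustment over 14606 genes), in a contrast where 22.6% of all genes tested were higher, 27.9% lower and 50.5% either. The median log2 difference of the 10 genes was 0.58, against -0.04 over all genes tested. The 3 libraries of each side did not overlap for 8 of the 10 genes, against 57.9% of all genes.

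PSMB9, which takes the place of PSMB6, moved most. It had 7.55, 8.88 and 7.66 TPM on 1.5 kPa, against 3.49, 3.24 and 3.23 TPM on plastic, a log2 difference of 1.06 (SE 0.10, adjusted p = 4.45e-05) and a ratio of mean TPM of 2.42. Every 1.5 kPa library lay above every plastic one. PSMB8, which takes the place of PSMB5, had 12.4, 13.2 and 13.3 TPM on 1.5 kPa and 7.34, 7.48 and 8.27 TPM on plastic (log2 difference 0.68, SE 0.08, adjusted p = 0.000161). PSMB10, which takes the place of PSMB7 and was the most abundant of the 3 in TPM, had 41.4, 42.5 and 43.4 TPM on 1.5 kPa and 23.6, 19.2 and 25.1 TPM on plastic (log2 difference 0.89, SE 0.09, adjusted p = 6.94e-05). Neither pair of groups overlapped.

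The PA28 subunits were the most abundant of the 10 genes per length. PSME2 had 108, 131 and 124 TPM on 1.5 kPa and 66.4, 66.6 and 67.4 TPM on plastic (log2 difference 0.85, SE 0.07, adjusted p = 1.91e-05). PSME1 had 105, 116 and 108 TPM on 1.5 kPa and 71.1, 83.1 and 82.8 TPM on plastic (log2 difference 0.47, SE 0.07, adjusted p = 0.000551). PSME2 thus stood above PSME1 in each 1.5 kPa library and below it in each plastic library.

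Both transporter subunits rose. The 1.5 kPa libraries had 7.34, 7.30 and 7.32 TPM of TAP1 and the plastic libraries 3.94, 3.54 and 3.76 TPM (log2 difference 0.81, SE 0.09, adjusted p = 0.000123). TAP2 had 6.21, 4.56 and 5.26 TPM on 1.5 kPa and 3.63, 3.54 and 3.64 TPM on plastic (log2 difference 0.45, SE 0.12, adjusted p = 0.0116), without overlap but with a wider spread on 1.5 kPa. Tapasin did not share the increase: TAPBP had 17.9, 16.4 and 15.9 TPM on 1.5 kPa and 18.6, 17.6 and 17.6 TPM on plastic (log2 difference -0.09, adjusted p = 0.325), and its sign turned under median centring (0.020). The trimming enzyme ERAP1 fell, with 18.2, 16.4 and 15.6 TPM on 1.5 kPa against 22.7, 29.2 and 35.6 TPM on plastic (log2 difference -0.75, SE 0.14, adjusted p = 0.00182). NLRC5 had 21.5, 15.5 and 16.7 TPM on 1.5 kPa and 15.8, 16.0 and 14.1 TPM on plastic, which overlap (log2 difference 0.21, adjusted p = 0.152, and 0.32 with adjusted p = 0.0170 after median centring).

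**Figure D1:**
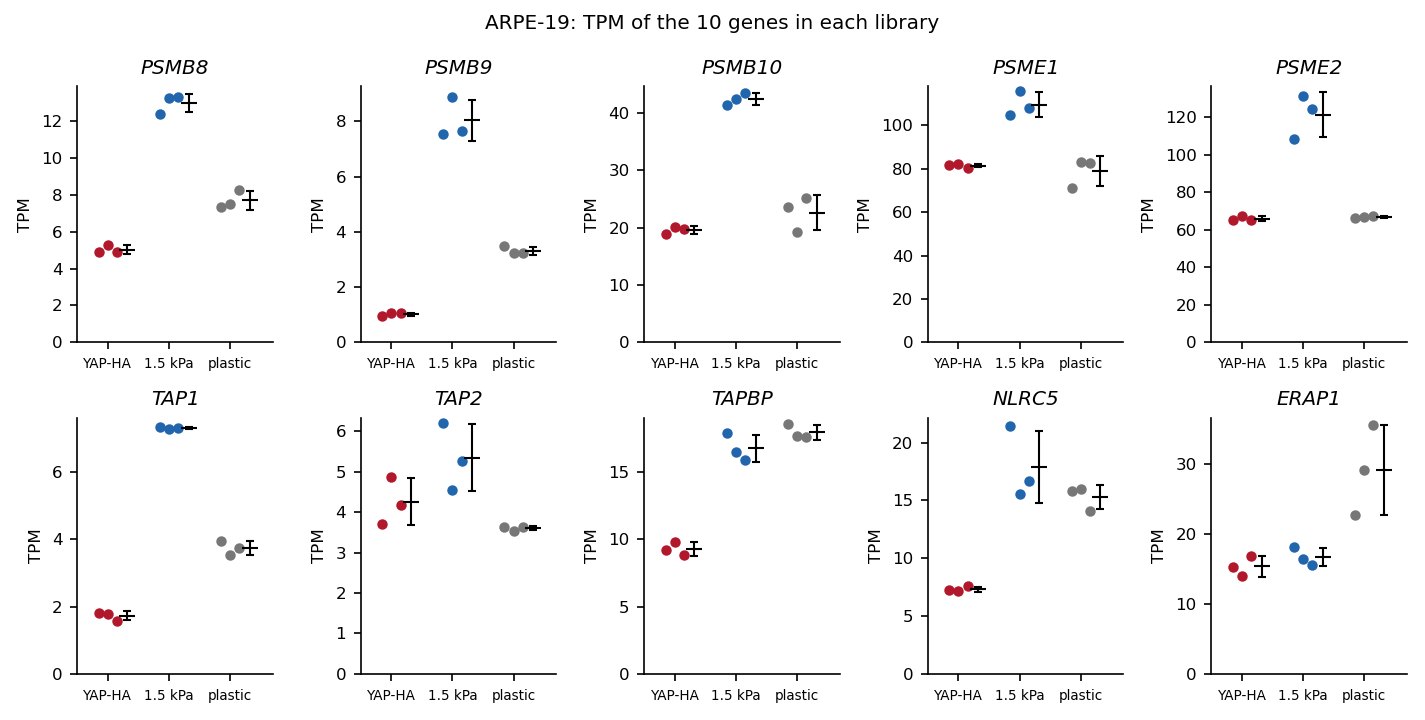
TPM (vertical axes, from 0) of the 10 genes in each ARPE-19 library, with 3 YAP-HA libraries left, 3 on 1.5 kPa in the middle and 3 on plastic right, and bars giving mean ± SD. PSMB9 shows the widest separation, with 0.95 to 1.06 TPM under YAP-HA, 7.55 to 8.88 TPM on 1.5 kPa and 3.23 to 3.49 TPM on plastic.

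YAP-HA overexpression on the same 1.5 kPa substrate went the other way. All 10 log2 differences were below 0, and 8 of 10 genes fell at an adjusted p under 0.05, where 23.9% of all genes tested were lower, 24.5% higher and 48.4% either. The median log2 difference was -0.97 for the 10 genes and 0.01 for all genes tested, and the libraries did not overlap for 8 of 10 genes, against 56.8% of all genes. This contrast shares its 1.5 kPa libraries with the preceding one, so the opposite signs are not separate evidence.

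PSMB9 was again the widest, with 0.95, 1.06 and 1.05 TPM in YAP-HA cells and 7.55, 8.88 and 7.66 TPM in control cells (log2 difference -2.16, SE 0.10, adjusted p = 1.32e-07). The ratio of mean TPM was 0.127. PSMB8 had 4.89, 5.29 and 4.90 TPM in YAP-HA cells against 12.4, 13.2 and 13.3 TPM in control cells (log2 difference -1.21, SE 0.08, adjusted p = 2.08e-06). PSMB10 had 18.8, 20.1 and 19.8 TPM in YAP-HA cells against 41.4, 42.5 and 43.4 TPM in control cells (log2 difference -1.08, SE 0.09, adjusted p = 1e-05). All YAP-HA libraries lay below all control libraries for the 3 catalytic subunits.

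TAP1 had 1.82, 1.79 and 1.57 TPM in YAP-HA cells, against 7.34, 7.30 and 7.32 TPM in control cells (log2 difference -1.61, SE 0.09, adjusted p = 6.25e-07), a ratio of mean TPM of 0.236. TAP2, its partner, had 3.71, 4.88 and 4.19 TPM in YAP-HA cells and 6.21, 4.56 and 5.26 TPM in control cells, which overlap (log2 difference -0.27, adjusted p = 0.0975). The call of TAP2 depended on 1 library: without 1.5 kPa replicate 2 it passed the test at -0.36. TAPBP and NLRC5, which had not passed between the substrates, fell with YAP-HA. TAPBP had 9.19, 9.80 and 8.83 TPM in YAP-HA cells against 17.9, 16.4 and 15.9 TPM in control cells (log2 difference -0.79, SE 0.08, adjusted p = 2.24e-05). NLRC5 had 7.24, 7.18 and 7.57 TPM in YAP-HA cells against 21.5, 15.5 and 16.7 TPM in control cells (log2 difference -1.17, SE 0.11, adjusted p = 2.18e-05). Neither overlapped.

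Both PA28 subunits fell. PSME2 had 64.9, 67.3 and 65.1 TPM in YAP-HA cells against 108, 131 and 124 TPM in control cells (log2 difference -0.87, adjusted p = 7.3e-06), and PSME1 had 81.9, 82.0 and 80.4 TPM against 105, 116 and 108 TPM (log2 difference -0.42, adjusted p = 0.000842). ERAP1 was level, with 15.3, 14.0 and 16.9 TPM in YAP-HA cells and 18.2, 16.4 and 15.6 TPM in control cells (log2 difference -0.11, SE 0.14, adjusted p = 0.528).

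Set against plastic, where both the substrate and YAP-HA differ, 6 of 10 genes were lower in YAP-HA cells and 0 of 10 higher, in a contrast where 20.2% of all genes were lower, 14.2% higher and 34.4% either. PSMB9 (log2 difference -1.10), NLRC5 (-0.96), TAPBP (-0.88), ERAP1 (-0.86), TAP1 (-0.80) and PSMB8 (-0.53) fell, with adjusted p between 1.84e-05 for TAPBP and 0.0012 for ERAP1. PSMB10 (-0.19, adjusted p = 0.136), PSME1 (0.05, adjusted p = 0.643), PSME2 (-0.02, adjusted p = 0.843, and 0.061 after median centring) and TAP2 (0.19, adjusted p = 0.27) did not pass. The libraries did not overlap for 7 of 10 genes, against 49.8% of all genes, and TAP2 was among these 7 without passing the test. The median log2 difference was -0.66 for the 10 genes and -0.05 for all genes.

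**Figure D2:**
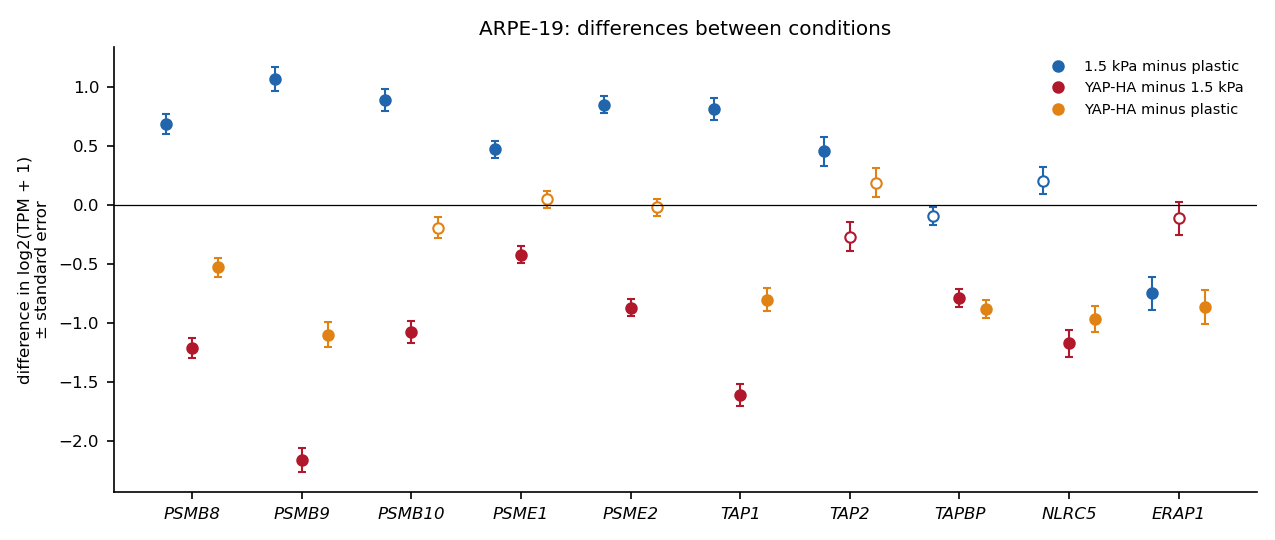
Difference in log2(TPM + 1) with its standard error (vertical axis) for each gene in the 3 contrasts of ARPE-19, which share libraries; filled points passed an adjusted p under 0.05 and open points did not. PSMB9 runs from 1.06 between the substrates to -2.16 under YAP-HA, while ERAP1 is low in both contrasts with plastic (-0.75 and -0.86).

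The constitutive counterparts had smaller log2 differences than the 3 immunoproteasome subunits in both contrasts with 1.5 kPa, which was not tested. On 1.5 kPa against plastic, PSMB5 (0.47), PSMB6 (0.51) and PSMB7 (0.54) all rose in log2 difference, and with YAP-HA on 1.5 kPa PSMB6 (-0.38) and PSMB7 (-0.46) fell while PSMB5 (-0.11) did not pass. As a share of its counterpart, PSMB9 came to 0.548%, 0.575% and 0.622% of PSMB6 TPM in YAP-HA libraries, to 3.70%, 3.51% and 3.32% in 1.5 kPa libraries and to 2.30%, 2.15% and 1.79% in plastic libraries. The 3 groups did not overlap in this share. PSMB8 made up 3.05% to 3.12% of PSMB5 TPM with YAP-HA, 6.96% to 7.60% on 1.5 kPa and 5.86% to 6.19% on plastic. PSMB10 made up 8.45% to 9.26% of PSMB7 TPM with YAP-HA, 13.4% to 14.3% on 1.5 kPa and 9.21% to 11.8% on plastic. The constitutive subunits were thus in excess in every library, and their shares were described and not tested.

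Most of the rest of the proteasome also rose on 1.5 kPa, where 22.6% of all genes were higher and 27.9% lower than on plastic. With YAP-HA on 1.5 kPa, 24.5% of all genes were higher and 23.9% lower. With YAP-HA against plastic, 14.2% were higher and 20.2% lower. Against plastic, 11 of 11 other 20S subunits rose, PSMA6 (0.71), PSMA5 (0.65) and PSMA2 (0.64) by the most, as did 11 of 17 subunits of the 19S regulatory particle, including PSMD14 (0.51), PSMC5 (0.50) and PSMD13 (0.44), and 6 of 8 activators and assembly factors, led by the maturation factor POMP (0.86), PSMG3 (0.52) and PSMG4 (0.40). None of these 3 lists had a gene that fell. Under YAP-HA on 1.5 kPa, 8 of 11 of the 20S subunits fell and 0 rose (PSMA6 -0.49, PSMB1 -0.42, PSMA5 -0.40), while the 19S particle was mixed, with 2 higher and 5 lower of 17 (PSMC5 -0.31, PSMD12 0.28, PSMD4 -0.26). The activators and assembly factors were split at 2 higher and 2 lower of 8 (POMP -0.52, PSMG3 -0.37, PSME3 0.35). Against plastic, YAP-HA cells had 5 of 11 of the 20S subunits, 11 of 17 of the 19S subunits and 4 of 8 activators and assembly factors higher and 0 lower, with PSMG1 (0.58), PSMC6 (0.49) and PSMA2 (0.44) in front.

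Other peptide loading and trimming genes did not move as a block. Over all genes, 22.6% were higher and 27.9% lower on 1.5 kPa against plastic. The shares were 24.5% and 23.9% with YAP-HA on 1.5 kPa, and 14.2% and 20.2% with YAP-HA against plastic. On 1.5 kPa against plastic, 3 of 6 rose and 2 fell: TAPBPL, the tapasin-related peptide editor, rose (0.83), while the chaperone CANX (-0.74) and the aminopeptidase LNPEP (-0.63) fell. With YAP-HA on 1.5 kPa, 2 of 6 rose, CANX (0.70) and LNPEP (0.69), and 4 fell, TAPBPL (-1.59) by the most. Against plastic, YAP-HA cells had 0 of 6 higher and 3 lower (TAPBPL -0.76, ERAP2 -0.63, PDIA3 -0.23).

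A list of genes for the interferon gamma receptor and for interferon signalling was read against the shares of all genes that passed the test in the 3 contrasts (50.5%, 48.4% and 34.4%). By direction these shares were 22.6%, 24.5% and 14.2% higher and 27.9%, 23.9% and 20.2% lower. Of the 9 genes of this list that were tested, 5 rose and 1 fell on 1.5 kPa against plastic (both IRF1, 0.57, and IRF9, 0.56, rose). With YAP-HA on 1.5 kPa, 1 rose and 6 fell (both IRF1, -1.85, and IRF9, -1.22, fell). With YAP-HA against plastic, 0 rose and 5 fell (both IRF1, -1.28, and IRF9, -0.66, fell). The gene for interferon gamma itself, IFNG, was listed at 0 in all 9 libraries, whereas IFNB1 was at 0.16 to 0.43 TPM with YAP-HA, 2.36 to 4.74 TPM on 1.5 kPa and 0.94 to 1.49 TPM on plastic. A list of 4 genes held CIITA and the RFX partners that it shares with NLRC5. In it, RFXANK rose (0.41) and RFX5 fell (-0.47) on 1.5 kPa against plastic. CIITA (-0.69) and RFXANK (-0.42) fell with YAP-HA on 1.5 kPa, and RFX5 alone fell (-0.45) with YAP-HA against plastic. CIITA was near the floor, at 0.27, 0.14 and 0.79 TPM with YAP-HA and 1.39, 1.43 and 0.86 TPM on 1.5 kPa. No YAP-HA library reached the 1 TPM of the filter. CIITA was therefore tested only through control libraries, and its entry into the test was not independent of its direction. The class I molecules that receive the peptides moved in the same directions, since log2 differences on 1.5 kPa against plastic were 1.03 for HLA-B, 0.93 for HLA-C and 1.00 for B2M, and with YAP-HA on 1.5 kPa they were -2.62 for HLA-B, -2.23 for HLA-C and -1.95 for B2M.

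The genes whose profile over the 9 libraries was most like the mean standardised profile of the 10 genes were BATF2 (Pearson r = 0.997), ABCC3 (0.996), PNMA1 (0.995), DHRS3 (0.995) and COL16A1 (0.995). The 9 libraries fall into 3 conditions, so these values chiefly restate differences between 3 group means. BATF2, for example, had 0.19, 0.35 and 0.28 TPM with YAP-HA, 7.55, 8.06 and 7.21 TPM on 1.5 kPa and 1.76, 2.23 and 2.38 TPM on plastic.

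In the bulk eye cups of old mice, 9 of the 10 genes had a log2 difference below 0 with TRULI and Erap1 one above, but no gene passed the test. At an adjusted p under 0.05, 0 of 10 were called by limma with Benjamini-Hochberg adjustment over 15132 genes, where 0.0529% of all genes (8) were called, 0.0198% higher and 0.033% lower; at an unadjusted p under 0.05 the counts were 3 of 10 members and 1810 genes. With 2 libraries against 2, only 38% of genes given a log2 change of 2 in simulated data were recovered. The samples did not overlap for 7 of 10 genes, 6 lower and 1 higher, against 43.3% of all genes. The median log2 difference was -0.27 for the 10 genes and 0.04 for all genes tested.

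Psmb8 had 62.9 and 67.2 TPM in TRULI samples, against 105 and 88.9 TPM in controls (log2 difference -0.57, SE 0.14, adjusted p = 0.276). Tap1 had 16.7 and 19.3 TPM in TRULI samples, against 54.8 and 29.1 TPM in controls (log2 difference -1.11, SE 0.32, adjusted p = 0.316). Erap1 was the exception in direction, with 33.4 and 32.7 TPM in TRULI samples, against 19.5 and 16.4 TPM in controls (log2 difference 0.85, SE 0.17, adjusted p = 0.228). These 3 genes had unadjusted p under 0.05 and no overlap. Psmb9 (10.4 and 11.7 TPM with TRULI, 13.5 and 14.8 TPM in controls) and Psmb10 (11.7 and 14.8 TPM with TRULI, 16.2 and 17.6 TPM in controls) were also lower in both TRULI samples, at log2 differences of -0.33 and -0.34 and an adjusted p of 0.588 and 0.592.

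The remaining members were closer or more scattered. Tap2 had 23.8 and 26.9 TPM with TRULI and 32.0 and 27.1 TPM in controls (log2 difference -0.21), and Tapbp had 76.9 and 71.5 TPM with TRULI and 87.2 and 77.0 TPM in controls (log2 difference -0.14), both without overlap by a narrow margin. Psme1 (383 and 344 TPM with TRULI, 451 and 369 TPM in controls) and Psme2 (64.3 and 76.9 TPM with TRULI, 89.1 and 64.1 TPM in controls) overlapped, at log2 differences of -0.17 and -0.10, and Psme2 turned to 0.13 without control replicate 1. Nlrc5 varied most between replicates, with 1.74 and 10.2 TPM with TRULI and 7.35 and 19.6 TPM in controls (log2 difference -1.24, SE 0.77, adjusted p = 0.593).

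**Figure D3:**
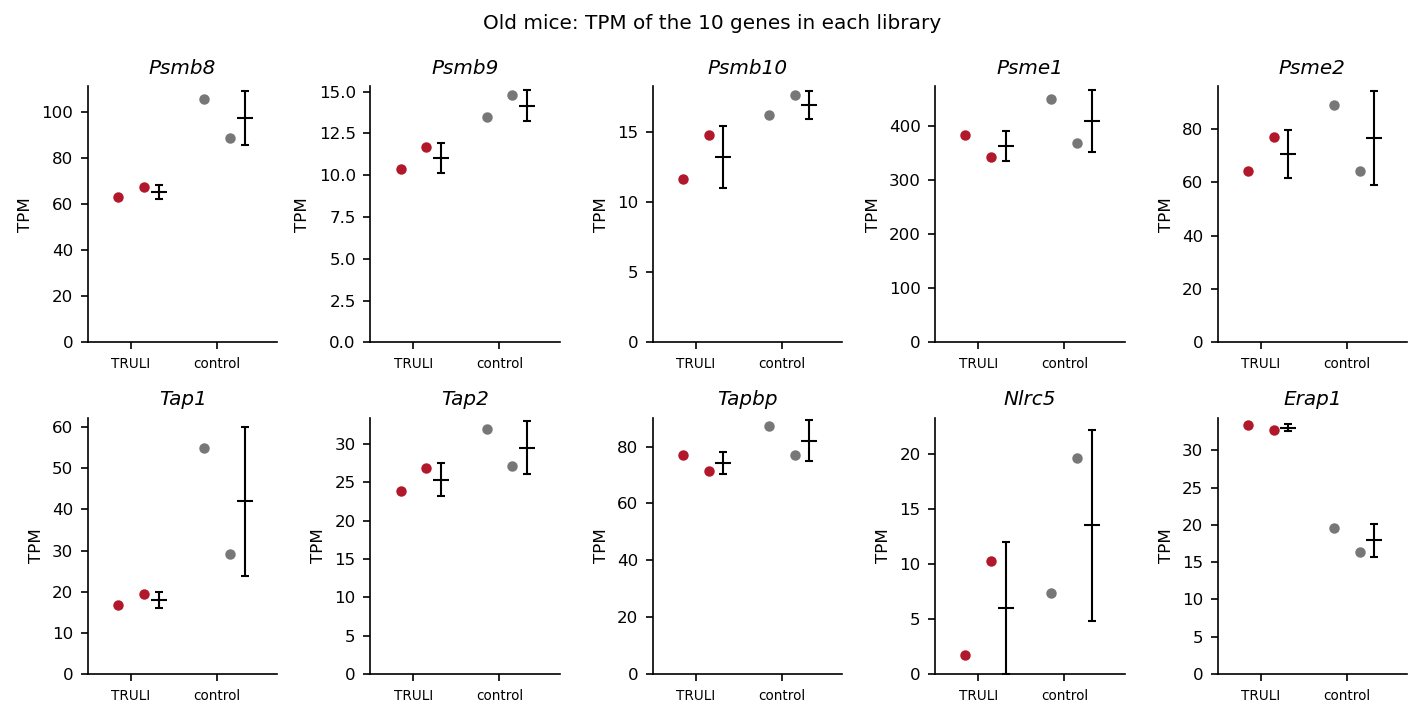
TPM (vertical axes, from 0) of the 10 genes in 2 TRULI samples (left) and 2 control samples (right) of old mice, with bars giving mean ± SD, cut at 0. Psmb8 and Tap1 lie lower in both TRULI samples and Erap1 higher (33.4 and 32.7 against 19.5 and 16.4 TPM), while Nlrc5 overlaps.

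Levels of cell type markers differed between TRULI and control samples. The summed TPM of 6 T cell markers was 15.2 and 18.0 with TRULI and 56.6 and 66.9 in controls, that of 5 neutrophil markers 11.9 and 19.2 against 72.5 and 60.8, that of 4 mast cell markers 53.0 and 84.5 against 127 and 141, and that of 3 erythroid markers 534 and 461 against 1847 and 1274. Pericyte markers (8 genes) summed to 596 and 927 TPM with TRULI and 328 and 396 TPM in controls, and melanocyte markers (6 genes) to 4986 and 4597 TPM with TRULI and 3342 and 3589 TPM in controls. Macrophage markers did not move together. Lyz2 was at 8380 and 7206 TPM with TRULI and 5661 and 5582 TPM in controls, whereas C1qa was at 146 and 203 TPM with TRULI and 391 and 371 TPM in controls, and C1qb, C1qc and Cd68 were likewise lower in both TRULI samples. Among RPE markers, Ttr was at 17594 and 18382 TPM with TRULI and 14205 and 13516 TPM in controls, while Rpe65 overlapped at 2490 and 1798 TPM with TRULI and 2277 and 2521 TPM in controls. None of the T cell, neutrophil, mast cell, erythroid, macrophage or RPE markers was at 0 in all 4 samples. The part of these shifts in the values of the 10 genes was not tested, and in bulk tissue fewer cells of a type and less RNA per cell cannot be told apart. Psmb8 TPM exceeded Psmb5 TPM, at 133% and 154% of it with TRULI and 251% and 193% in controls, while Psmb9 was 5.76% and 6.01% of Psmb6 with TRULI and 6.34% and 8.01% in controls, and Psmb10 was 24.6% and 25.9% of Psmb7 with TRULI and 36.0% and 40.3% in controls. No gene of the other 7 lists was called. Ccn2, the YAP target, had 868 and 1286 TPM with TRULI and 356 and 564 TPM in controls (log2 difference 1.24, adjusted p = 0.252).

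In the single-cell libraries, cells were taken as RPE when 6 RPE genes (Mitf, Rlbp1, Rpe65, Trpm3, Ttr and Tyr) made up at least 4% of their unique molecular identifiers (UMIs). This kept 5419 of 15198 Old-RPE cells (35.7%) and 1886 of 15667 Young-RPE cells (12.0%). Other RPE genes that the rule did not use stood out in them, Rgr at 13731 CPM (UMIs scaled to a fixed total per class) in old and 13679 CPM in young RPE cells and Lrat at 1400 and 1645 CPM, against 1169 and 542 CPM for Rgr and 137 and 84.9 CPM for Lrat in old and young fibroblast-like cells. Best1, in contrast, was at 1.05 CPM in old and 0.460 CPM in young RPE cells, below its level in fibroblast-like cells. The cut was a range and not a sharp border: 976 old and 396 young cells lay between 4% and 5%, and 870 old and 678 young cells between 3% and 4%. RPE cells of the old library were shallower, with a median of 3887 UMIs against 10783 in the young, and 300 barcodes occurred in both libraries. Each age had 1 library, so no test across animals was possible, and the exact 95% intervals given cover counting error only.

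Within either library, these genes made up a smaller share of the UMIs in RPE cells than in most of the other cell classes compared. CPM is such a share and not an amount per cell. In Young-RPE the median cell had 10783 UMIs among RPE cells and 5184 among fibroblast-like cells. Of the 8 cell classes, RPE cells had the lowest CPM for 9 of the 10 genes in Old-RPE and for 10 of 10 in Young-RPE, and T cell-like cells the highest for 9 of 10 and 10 of 10. The exception in Old-RPE was Nlrc5, which had 0 UMIs in B cell-like cells and in RPE-like cells outside the gate (upper bounds 11.6 and 1.80 CPM), against 0.909 CPM in RPE cells. Psmb8 in Old-RPE followed the order T cell-like (583 CPM), macrophage-like (338), endothelial-like (292), B cell-like (261), fibroblast-like (147), RPE-like outside the gate (58.7), pericyte-like (56.1) and RPE cells (16.6). In Young-RPE the order was T cell-like (484 CPM), macrophage-like (253), B cell-like (221), endothelial-like (157), fibroblast-like (95.9), RPE-like outside the gate (35.1), pericyte-like (35.1) and RPE cells (6.48). The intervals of RPE-like cells outside the gate and pericyte-like cells overlapped in both libraries, as did those of B cell-like cells with both macrophage-like and endothelial-like cells. In Old-RPE the macrophage-like and endothelial-like intervals overlapped as well.

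The distance between RPE cells and fibroblast-like cells, the most numerous other class, differed between the genes. Psmb8 was 8.86-fold higher in fibroblast-like than in RPE cells of Old-RPE and 14.8-fold higher in Young-RPE, and Psmb9 was 6.09-fold and 11.1-fold higher in the same order. The transporter was nearer, at 4.53-fold and 5.38-fold for Tap1 and 3.52-fold and 3.79-fold for Tap2, followed by Tapbp at 3.36-fold and 3.62-fold and Psmb10 at 2.77-fold and 2.81-fold. Psme1 (1.996-fold and 2.11-fold), Psme2 (1.96-fold and 1.94-fold) and Erap1 (1.67-fold and 1.67-fold) differed least. These folds of CPM hold for the 4% gate, since levels in RPE cells shifted with the gate. Psmb8 was at 26.9 CPM in old and 10.6 CPM in young cells with a marker share of at least 2%. With a share of at least 8% it was at 7.98 CPM in old and 1.87 CPM in young cells.

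**Figure D4:**
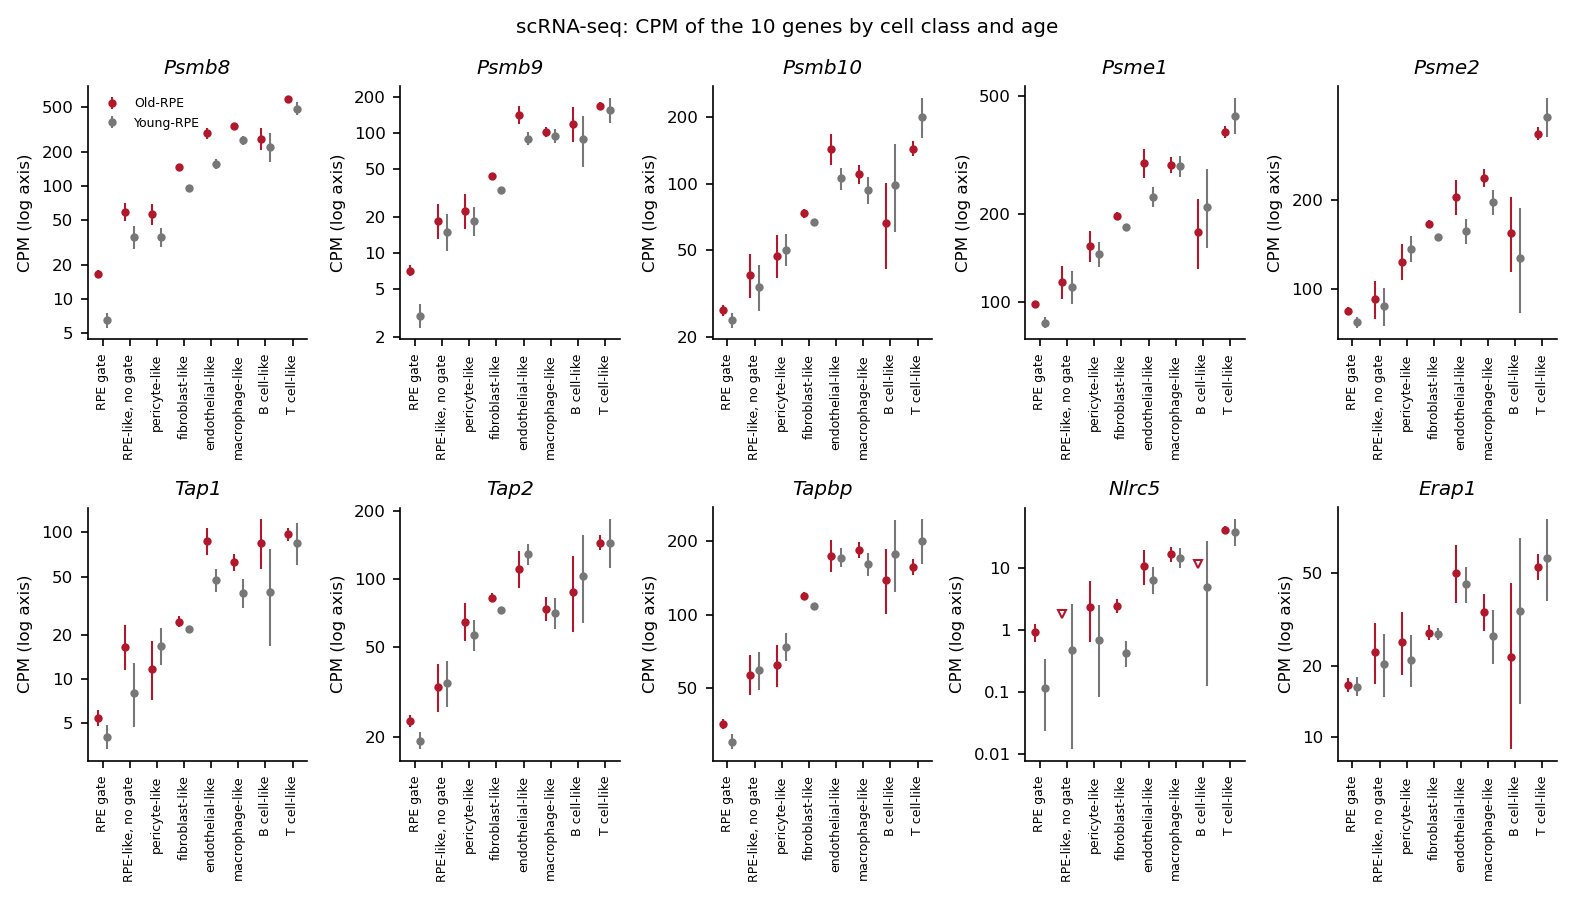
CPM on a log axis (summed UMIs per class with exact 95% Poisson intervals) of the 10 genes in 8 cell classes of Old-RPE and Young-RPE; an open triangle marks the upper bound of a class with 0 UMIs. RPE cells are lowest for Psmb8 in both libraries, at 16.6 CPM in Old-RPE and 6.48 CPM in Young-RPE, and T cell-like cells highest, at 583 and 484 CPM.

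Between the ages, 3 of the 10 genes were at least 1.5-fold higher in old RPE cells and 0 of 10 at least 1.5-fold lower. Of 14759 genes with at least 20 UMIs in the 2 libraries together, 8.52% were higher and 5.01% lower by that measure. Psmb8 had 16.6 CPM (731 UMIs) in old and 6.48 CPM (169 UMIs) in young RPE cells, a log2 ratio of 1.36 (interval 1.12 to 1.61). Psmb9 had 7.18 CPM (316 UMIs) in old and 3.03 CPM (79 UMIs) in young RPE cells, a log2 ratio of 1.25 (0.89 to 1.62). Nlrc5 was close to the floor in both, with 40 UMIs in old and 3 UMIs in young RPE cells, so its log2 ratio of 2.98 spans 1.33 to 5.32. It met the minimum of 20 UMIs only through the old library, so its place among the 3 genes was not independent of its direction.

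The other 7 genes differed by less than 1.5-fold. Tap1 had 5.46 CPM in old and 4.06 CPM in young RPE cells (log2 ratio 0.43, interval 0.09 to 0.77), Tap2 23.5 and 19.3 CPM (0.29, 0.13 to 0.44) and Tapbp 35.6 and 30.1 CPM (0.24, 0.12 to 0.37). Psme1 had 98.5 CPM in old and 85.4 CPM in young RPE cells (0.20, 0.13 to 0.28), Psme2 84.7 and 77.5 CPM (0.13, 0.05 to 0.21) and Psmb10 26.4 and 23.8 CPM (0.15, 0.01 to 0.29). Erap1 was level at 16.7 CPM in old and 16.4 CPM in young RPE cells (0.02, -0.15 to 0.20). The counting interval lay above 0 for 9 genes and included 0 for 1, and the median log2 ratio was 0.26 for the 10 genes and -0.04 for all genes counted. Psmb8 thus came to 8.08% of Psmb5 UMIs in old and 3.10% in young RPE cells, Psmb9 to 3.42% of Psmb6 UMIs in old and 1.51% in young, and Psmb10 to 29.3% of Psmb7 UMIs in old and 24.9% in young. In fibroblast-like cells Psmb8 came to 100.5% of Psmb5 UMIs in old and 64.6% in young.

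**Figure D5:**
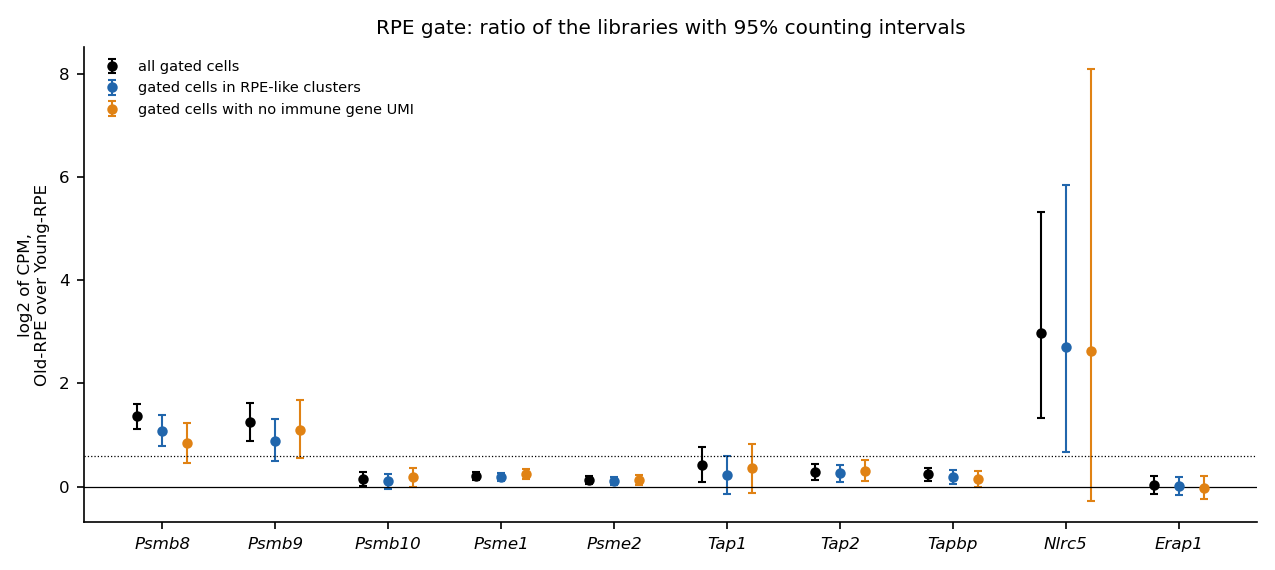
Log2 ratio of CPM, Old-RPE over Young-RPE, with the exact conditional 95% counting interval (1 library per age, no test) for the 10 genes in all gated RPE cells (black), gated cells in RPE-like clusters (blue) and gated cells without an immune UMI (orange); the dotted line marks 1.5-fold. In all gated cells Psmb8 (1.36), Psmb9 (1.25) and Nlrc5 (2.98, from 40 and 3 UMIs) pass 1.5-fold and Erap1 sits at 0.02.

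Immune transcripts also differed between old and young RPE cells. Macrophage markers (7 genes) summed to 643 CPM in old and 242 CPM in young RPE cells, T cell markers (6 genes) to 19.6 and 0.881 CPM, neutrophil markers (5 genes) to 38.2 and 0.192 CPM and NK cell markers (5 genes) to 3.16 and 0.153 CPM. None of these markers was at 0 in old RPE cells, whereas 1 T cell, 2 neutrophil and 3 NK cell markers were at 0 in young RPE cells. A UMI of at least 1 of 8 immune genes (Ptprc, Tyrobp, C1qa, C1qb, C1qc, Cd3e, Cd79a and Nkg7) was found in 46.4% of old and 30.2% of young RPE cells. In the 2902 old and 1317 young RPE cells without one, Psmb8 was at 7.63 CPM in old and 4.27 CPM in young (log2 ratio 0.84, interval 0.45 to 1.24), Psmb9 at 4.30 and 2.001 CPM (1.10, 0.55 to 1.69), and Nlrc5 had 8 and 1 UMIs. Among the 4820 old and 1621 young gated cells that also fell in RPE-like clusters, the log2 ratio was 1.08 (0.78 to 1.38) for Psmb8, 0.89 (0.49 to 1.31) for Psmb9 and 2.71 (0.67 to 5.84) for Nlrc5, from 21 and 2 UMIs. In gated cells with more than 10000 UMIs, a depth both libraries reach, it was 1.05 for Psmb8, 1.07 for Psmb9 and 2.47 for Nlrc5. Psmb8 and Psmb9 were at least 1.5-fold higher in old cells in each of these 3 subsets. In all gated cells Psmb8 was at 16.6 CPM in old and 6.48 CPM in young (log2 ratio 1.36). Psmb9 was at 7.18 and 3.03 CPM there (1.25). Both ratios were lower than this in each of the 3 subsets, and not only without an immune UMI. For Psmb9 the interval of each subset included 1.25 (0.67 to 1.49 above 10000 UMIs). Only 8 immune genes were screened, so cells without such a UMI may still hold other immune transcripts. The part of immune transcripts in the Psmb8 and Psmb9 values was not tested.

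No subunit of the standard proteasome differed by 1.5-fold between old and young RPE cells: 0 of 3 catalytic counterparts, 0 of 11 other 20S subunits, 0 of 17 subunits of the 19S particle and 0 of 8 activators and assembly factors. Of the 5 other loading and trimming genes with enough UMIs, 0 differed by that much. Over all genes counted, 8.52% were at least 1.5-fold higher and 5.01% lower in old RPE cells. Of the list for the interferon gamma receptor and interferon signalling, 2 of 10 were at least 1.5-fold higher. Among them was Irf9, with 23.7 CPM in old and 15.5 CPM in young RPE cells (log2 ratio 0.61, interval 0.44 to 0.78).

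Outside the RPE cells the difference by age was not the same gene by gene. Endothelial-like cells (326 old, 774 young) had 4 of 10 genes at least 1.5-fold higher in Old-RPE and 0 lower, where 7.69% of genes were higher and 13.6% lower: Psmb8 (log2 ratio 0.90), Tap1 (0.89), Psmb9 (0.66) and Nlrc5 (0.72, interval -0.51 to 1.88). Fibroblast-like cells (5382 old, 8623 young) had 2 higher, Psmb8 (0.62) and Nlrc5 (2.53, 1.78 to 3.34), and 0 lower, where 9.24% of genes were higher and 10.4% lower. RPE-like cells outside the gate (592 old, 415 young) had 2 higher, Tap1 (1.05) and Psmb8 (0.74), and 0 lower, where 5.26% of genes were higher and 12.5% lower. Each of the next 3 classes had 1 gene higher and 0 lower. It was Tap1 (0.70) in macrophage-like cells (776 old, 502 young), where 6.63% of genes were higher and 17.2% lower. It was Psmb8 (0.68) in pericyte-like cells (418 old, 530 young), where 7.64% were higher and 12.3% lower. It was Tap1 again (1.11, -0.07 to 2.46) in B cell-like cells (82 old, 52 young), where 11.1% were higher and 26.5% lower. T cell-like cells (1328 old, 102 young) had 0 either way, where 18.3% of genes were higher and 14.8% lower. Different clusters made up the fibroblast-like class at each age, since one of its clusters, led by Ccl11 and Il1rn, held 4493 old and 326 young cells, and another, led by Alkal2 and Coch, 205 old and 5318 young cells (a few of them inside the RPE gate). Nlrc5 had fewer than 20 UMIs in RPE-like cells outside the gate and in pericyte-like cells, and Nlrc5 and Erap1 in B cell-like cells, so they could not count there. Tap1 met that minimum only through Old-RPE in B cell-like cells (27 old and 8 young UMIs) and in RPE-like cells outside the gate (34 and 17). Markers of other cells also differed with age in these classes. In fibroblast-like cells macrophage markers summed to 575 CPM in old and 163 CPM in young and RPE markers to 8159 CPM in old and 3902 CPM in young, and in endothelial-like cells macrophage markers summed to 828 CPM in old and 276 CPM in young and RPE markers to 11336 CPM in old and 6220 CPM in young. Their part in the values of the 10 genes was not tested. No difference between classes was tested.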

How the data were processed

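The 10 genes and all lists were chosen with earlier results of these data known. The authors deposited UMI counts for the single-cell libraries (10x 5′ chemistry) and TPM values for the bulk libraries. The submitters' processing notes list Cell Ranger 6.0.1, STAR 2.7.3a and 2.7.10b, RSEM and the builds mm10, GRCh38 and GRCm39. The methods read here are those of a paper that reanalysed the single-cell libraries, and of this series they describe only these libraries. Bulk TPM values were tested as log2(TPM + 1) with limma 3.58.1 (R 4.3.3; trend on), over genes with at least 1 TPM in 3 of 9 ARPE-19 or 2 of 4 mouse libraries, with Benjamini-Hochberg adjustment and a threshold of 0.05; fold changes on this scale understate those of low genes. In simulated data with 14257 (ARPE-19) or 14671 (mouse) genes, 95% and 2% of log2 changes of 1 were recovered. Replicate numbers did not pair the libraries and were not used as a block.

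Cells needed 200 genes and could carry up to 10% mitochondrial but 0 hemoglobin UMIs (15198 of 17835 old and 15667 of 16463 young barcodes; 82897938 and 89817876 UMIs). Doublets were kept and no caller was run. Cells outside the RPE gate were clustered with all others in Seurat 5.3.0 (2000 variable features without the 10 genes, 25 principal components, resolution 0.4), which gave 21 clusters named from marker lists, 2 of them unnamed. Names so rebuilt may differ from those of that paper. Classes needed 50 cells per library. CPM are UMIs summed over a class, with exact Poisson intervals for levels and exact conditional intervals for ratios, computed in Python 3.11.15 with scipy 1.17.1. All 10 genes are named, and of each list the 3 largest changes past the threshold, except for some genes that are not reported here. Alternatives were another pseudocount (0.1), filter (none, 5 TPM) or scaling, the replicate block, single libraries left out, and other RPE gates and cell subsets; the gated cells of RPE-like clusters and those above 10000 UMIs were added after the data had been seen.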

Additional observations from a re-analysis of the deposited data

How the results depend on the processing

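In ARPE-19, 8, 8 and 6 members were called on 1.5 kPa against plastic, with YAP-HA on 1.5 kPa and with YAP-HA against plastic, and these counts stayed within 1.5 times under every alternative run (8, 8 to 9 and 6 to 7 when single libraries were left out). Of all genes tested, 50.5%, 48.4% and 34.4% were called in the same order of contrasts. The sign turned for TAPBP on 1.5 kPa against plastic under median centring (0.020) and quantile normalization (0.012), for YAP-HA against plastic in PSME2 under median centring (0.061) and in PSME1 without plastic replicate 1 (-0.026, in a range of -0.026 to 0.085 over single libraries left out), and in mice for Psme2 without control replicate 1 (0.13) and without TRULI replicate 1 (0.025, in a range of -0.34 to 0.13). None of these genes was called. Median centring moved the median of all genes between the substrates to 0.07, against -0.04 as reported. Calls were gained by NLRC5 between the substrates under median centring (0.32) and quantile normalization (0.31), by TAP2 with YAP-HA on 1.5 kPa under median centring (-0.30), by TAP2 against plastic under quantile normalization (0.35) and by PSMB10 against plastic without plastic replicate 2 (-0.30). Of the values of single genes, 125 of 129 on 1.5 kPa against plastic, 127 of 129 with YAP-HA on 1.5 kPa, 125 of 129 with YAP-HA against plastic and 98 of 100 in mice kept direction and side of the threshold.

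Fitting the replicate number as a block called 8, 8 and 6 members in ARPE-19 and 0 in mice. Same-numbered libraries did not deviate together, so the numbers were read as names. Over all genes, the block called 6905 against 7383 on 1.5 kPa against plastic and 6645 against 7066 with YAP-HA on 1.5 kPa. With YAP-HA against plastic it called 4530 against 5019. It called 0 against 8 in mice, where a pseudocount of 0.1 and no filter on low values also called 0.

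In RPE cells by age, 82 of 97 values of single genes moved by less than their counting interval. Psmb8 ranged from 0.81 (all cells of RPE-like clusters) to 2.17 (cells with 2000 to 10000 UMIs) and Psmb9 fell to 0.63 in all cells of RPE-like clusters; Nlrc5 had too few UMIs at a gate of 8%, without immune UMIs and at 2000 to 10000 UMIs. With hemoglobin-positive cells kept, 1 member was lower in B cell-like and 1 in T cell-like cells, and 0 were higher in macrophage-like cells. With CPM averaged over single cells, 4 members were higher and 1 lower in RPE-like cells outside the gate, and 0 were higher in pericyte-like cells. Shares of all genes are not given for these settings, so these counts of members cannot be set against a background.

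Counts near the floor limit Nlrc5 in RPE cells, 2 libraries a side limit the mouse contrast, and 1 library per age allows no test.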
